A study of Mus musculus with 69 samples.

Results

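Lungs of mice that had received the lowest dose of a titanium dioxide nanomaterial, NRCWE-030, were compared with lungs of vehicle-treated mice 28 days after a single instillation into the trachea. The arrays were chosen by their titles: 5 arrays of NRCWE-030 at 18 µg on day 28 and 5 arrays of the day 28 control, which made 10 of the 69 arrays of the series. All animals were female C57BL/6 mice with no genetic change named in the labels, and all received a single instillation under anaesthesia, of particles in serum-containing water or of the vehicle alone. Each array held the RNA of 1 mouse, from a small piece of frozen whole lung, labelled with Cy5 and hybridised against a commercial pool of mouse RNA labelled with Cy3, so every level is a log2 ratio of lung over that pool. The other groups used here were NRCWE-030 at 54 and 162 µg on day 28, NRCWE-025 (the other nano-TiO2) at 18, 54 and 162 µg on day 28, and the day 1 control and NRCWE-030 at 18 µg on day 1, with 5 arrays each except NRCWE-025 at 162 µg, which had 4. The time of day of tissue collection was not given in the sources used here. In bulk tissue, fewer cells of a type and less RNA per cell cannot be told apart.

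Particles that reach the alveoli are taken up mainly by alveolar macrophages, and poorly soluble particles can remain in the lung for weeks, where neutrophil influx, acute phase proteins and chemokines are the usual early transcript changes. Heat shock proteins are chaperones that fold and refold other proteins. Their genes are driven by heat shock factor 1, which binds paired GAA units, whereas cold-inducible RNA-binding proteins such as Cirbp are induced by mild cooling and repressed by heat. The circadian clock, which also runs in the lung, is a loop in which Arntl (BMAL1) and Clock activate the Per, Cry and Nr1d genes and output factors such as Dbp.

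On the 10 arrays, between 53.2% and 72.8% of probes in Cy5 and between 43.6% and 65.7% in Cy3 were well above background, and no spot was saturated. The lowest share in each colour was that of treated replicate 5. Genes that define alveolar type 2, alveolar type 1 and endothelial cells were high on all 10 arrays, with mean log2 levels over each list between 4.07 and 5.19. On 1 array the deposited files disagreed. For treated replicate 5, the correlation between the scanner file and the array's own column of the series matrix, both as deviations from each probe's median over 69 arrays, was 0.288 over 40831 probes, whereas it lay between 0.931 and 0.996 on the other 68 arrays. Which of the 2 deposited versions belongs to the label is not known, so the counts of called genes below are also given without this array and with the series matrix values. Gene levels from its scanner file correlated most with control replicate 5 (0.961), beside 0.919 to 0.939 with treated replicates 1 to 4. As probe deviations, the highest correlation was with NRCWE-025 54 µg day 28 replicate 5 (0.573), then control replicate 5 (0.514). With treated replicates 1 to 4 it lay between -0.208 and 0.143. The reason was not tested. The controls were not uniform either: Hspa1a, the main stress-inducible HSP70 gene, lay at 2.96, 2.34 and 2.20 in control replicates 1 to 3 and at 0.88 and 0.73 in replicates 4 and 5.

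Between NRCWE-030 18 µg and control on day 28, 22 of 18664 genes (0.118%) differed at an adjusted p under 0.05 (limma, Benjamini-Hochberg), 18 higher (0.0964%) and 4 lower (0.0214%) after exposure. In 21 of the 22 the treated and the control arrays did not overlap, a separation seen with all treated arrays above in 1.22% and all below in 0.632% of the genes tested. Without treated replicate 5 the count was 70 (0.375%), of which 20 were among the 22, and in the series matrix values it was 93 (0.498%), of which 19 were. The number called in all 3 was 17. Higher calls were 0.236% and lower calls 0.139% of the genes without treated replicate 5, and 0.396% and 0.102% in the series matrix values. At an unadjusted p under 0.05, 1684 genes (9.02%) differed, 961 higher (5.15%) and 723 lower (3.87%), and the count was 2007 without treated replicate 5 and 1663 in the series matrix values. The count also turned on other single arrays: without control replicate 1, 2 or 3 it was 5, 1 and 3, without treated replicate 2 or 3 it was 2 in each case, without treated replicate 4 it was 14, and without control replicate 5 it was 56. The gene called without control replicate 2 was Firre. With scan day as a block no gene was called, with a smallest adjusted p of 0.0619 and 1852 genes at an unadjusted p under 0.05. Treated and control arrays shared 3 slides. With slide as a fixed block 105 genes were called, but 10 of the 22 were among them and 12 lost their call, among these Hsp90ab1 (-0.40, adjusted p = 0.07), Ahr (0.77, 0.0683) and Snhg16 (0.62, 0.0561). With slide as a random block 117 were called, which held all 22. Within slides 2, 6 and 9, each with 1 treated and 1 control array, Hspa8 differed by -1.29, -1.22 and -1.02 and Firre by 1.01, 1.24 and 0.96, and the sign of these pairs was fixed by groups that did not overlap. In 21 of the 22 the control group had the highest or the lowest mean of the 7 day 28 groups, and in 18 the 18 µg group had it. The genes were called on the difference of these same groups, which favours such places. The share over all genes was not computed, so these counts say nothing further about either group.

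**Figure D1:**
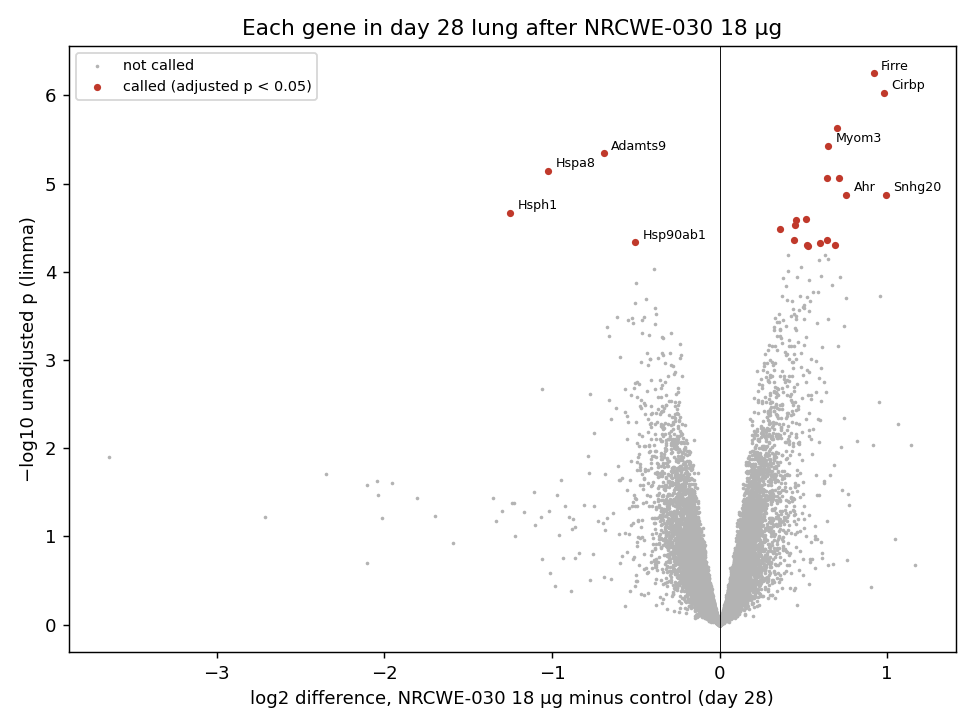
Each point is 1 of 18664 genes, with the log2 difference of NRCWE-030 18 µg minus control on day 28 on the x axis and minus log10 of the unadjusted limma p on the y axis. The 22 called genes are red, with 18 to the right of 0 and 4 to the left, and points far to the left without a call include the heart muscle gene Sln at -3.64.

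Among the gene lists used here, the heat shock and cold-inducible list was the only list that held called genes. No list of non-coding RNAs was made. Of the 18 genes of the heat shock and cold-inducible list, all of which were measured, 3 chaperones fell (Hspa8, Hsph1 and Hsp90ab1), 1 cold-inducible gene rose (Cirbp), and 14 did not pass the test. Over all genes tested, 0.0214% were called lower and 0.0964% higher. The list was chosen with earlier results of these data known, among them Hspa8. The difference was below 0 in 16 of the 18, with a median of -0.37 on the log2 scale beside 0 over all genes tested. At an unadjusted p under 0.05, 12 of the 18 were lower and 1 higher, beside 3.87% and 5.15% of all genes. Without treated replicate 5 the list had 3 calls and a median of -0.42, and in the series matrix values 4 calls and a median of -0.40. The mean log2 level over the 18 genes lay between -0.39 and -0.06 in the control arrays and between -0.72 and -0.51 in the treated arrays, with no overlap.

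The RefSeq windows of 300 bases around the gene start (assembly GRCm38.p6) are shown for the called genes Hsph1 and Cirbp, which moved in opposite directions, with capitals on paired heat shock units, GAANNTTC or TTCNNGAA. Both motifs read the same on either strand and can overlap by a shared unit. The Hsph1 window lies at chr5:149636266-149636565 on the minus strand and the Cirbp window at chr10:80167589-80167888 on the plus strand.
Hsph1: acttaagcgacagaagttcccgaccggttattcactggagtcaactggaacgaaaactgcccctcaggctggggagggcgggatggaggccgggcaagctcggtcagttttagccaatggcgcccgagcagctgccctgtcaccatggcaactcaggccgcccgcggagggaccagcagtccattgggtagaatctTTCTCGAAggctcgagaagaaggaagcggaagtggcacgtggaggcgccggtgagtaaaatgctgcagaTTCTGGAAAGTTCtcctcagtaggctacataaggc
Cirbp: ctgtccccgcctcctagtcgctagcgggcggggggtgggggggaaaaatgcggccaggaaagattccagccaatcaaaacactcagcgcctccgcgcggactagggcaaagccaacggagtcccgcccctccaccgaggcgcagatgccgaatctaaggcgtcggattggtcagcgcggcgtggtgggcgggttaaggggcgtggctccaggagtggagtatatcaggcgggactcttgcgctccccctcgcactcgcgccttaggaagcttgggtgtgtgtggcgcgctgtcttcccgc
The Hsph1 window held 3 matches and the Cirbp window 0. No match was found either for Dnajb1, Stip1 and Hspa5, whose differences were below 0. The called genes Hspa8 and Hsp90ab1 had no window, so the pair shown does not relate matches to direction. Of the 14 list members with a window, 8 (57.1%) held at least 1 match of either motif in any of their windows, beside 17% of 27025 genes in the table. The motif was chosen after the results were seen, and a match is a description of letters, not of binding.

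Hspa8 encodes the constitutive HSC70 chaperone. Its level in control replicates 1 to 5 was -1.41, -0.94, -1.20, -1.36 and -1.13, and in treated replicates 1 to 5 it was -2.70, -2.43, -2.15, -2.19 and -1.69. All treated arrays lay below all controls, with replicate 5 the highest of them. The difference was -1.02 ± 0.17 (SE, n = 5 and 5), a 2.03-fold lower level (adjusted p = 0.0202 by limma), and -1.16 (adjusted p = 0.00218) without treated replicate 5. Both Hspa8 probes were lower, by -0.93 and -1.11.

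Hsph1, an HSP110 chaperone that exchanges nucleotide on HSP70, had the largest fall among the called genes. The controls lay at 0.07, -0.11, -0.14, -0.49 and -0.19 and the treated arrays at -1.32, -1.81, -1.63, -1.88 and -0.46. Treated replicate 5 lay within the control range in its scanner file, just above control replicate 4, and stood at -1.17 in the series matrix. Hsph1 was the called gene whose groups overlapped. The difference was -1.25 ± 0.23 (SE, n = 5 and 5; adjusted p = 0.0365 by limma), and -1.49 (adjusted p = 0.00084) without that array.

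Hsp90ab1, the constitutive cytosolic HSP90, was 1.42-fold lower. Its controls lay at -1.10, -0.99, -1.29, -1.05 and -0.98 and its treated arrays at -1.57, -1.49, -1.50, -1.55 and -1.81. The groups did not overlap, but the call was the least stable of the 4: the difference of -0.50 ± 0.10 (SE, n = 5 and 5; adjusted p = 0.0432 by limma) became -0.45 with adjusted p = 0.0508 without treated replicate 5.

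Cirbp, an RNA-binding protein induced by mild cold, was 1.97-fold higher. The controls lay at 0.77, 0.62, 0.64, 0.97 and 1.28 and the treated arrays at 1.49, 1.93, 2.21, 1.66 and 1.90. Every treated array was above every control, in both deposited versions of replicate 5 (1.90 and 1.92). The difference was 0.98 ± 0.14 (SE, n = 5 and 5; adjusted p = 0.0087 by limma), and Rbm3, the other cold-inducible gene of the list, differed by 0.04 ± 0.11 (adjusted p = 0.957). Its 2 probes disagreed: 0.25 for the probe well above background on all 10 arrays and -0.16 for a probe well above background on 2 control and 2 treated arrays.

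The chaperones named next did not pass the test and were chosen after their values were seen. Differences were -0.51 for the cochaperone Stip1 (adjusted p = 0.0858), -0.39 for mitochondrial Hspd1 (0.0945), -0.66 for Dnajb1 (0.11), -0.61 for Hspa1b (0.0926) and -1.06 for Hspa1a (0.198). Control replicates 4 and 5 stood apart from replicates 1 to 3 in the stress-inducible members. For Dnajb1, an HSP40 cochaperone, they lay at -1.02 and -0.91 beside -0.21, -0.17 and -0.05, and the treated arrays ran from -1.46 to -0.89. The HSP90 cochaperones Fkbp4 and Ahsa1, which are not in the list and were chosen after their values were seen, passed the test without treated replicate 5, at -0.57 (adjusted p = 0.0165) and -0.42 (0.0421), and in the series matrix values, at -0.54 (0.00906) and -0.38 (0.0207).

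**Figure D2:**
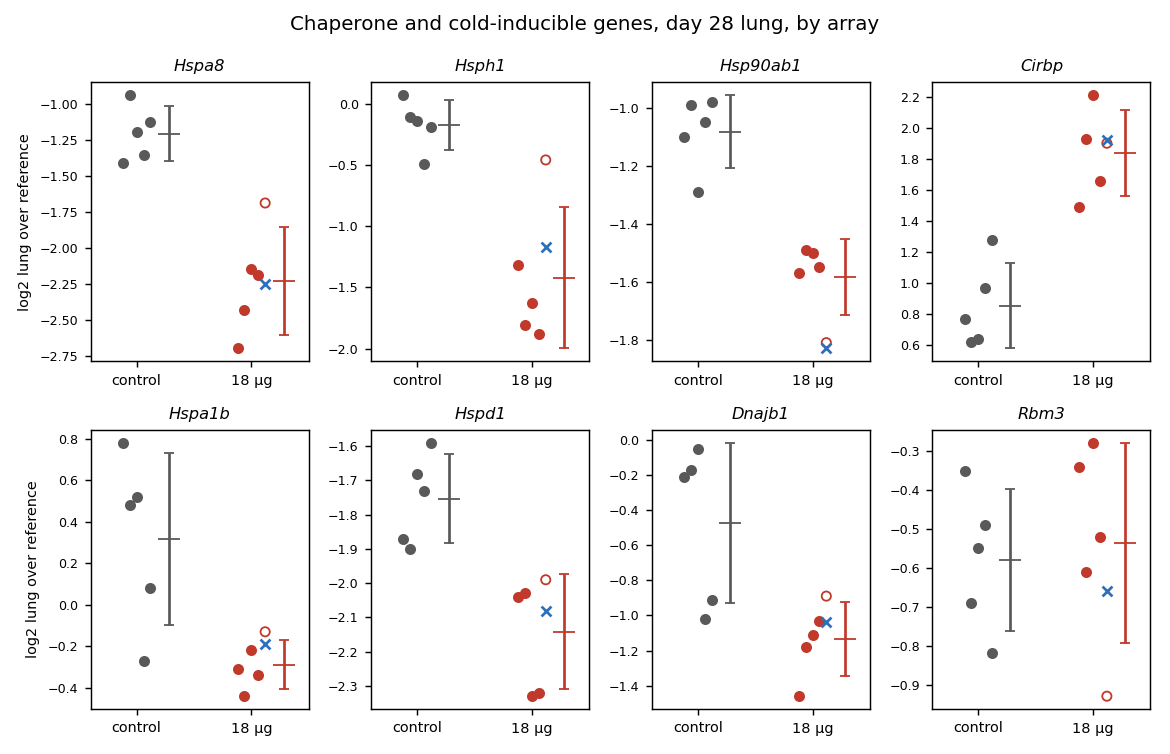
Log2 lung over reference for 8 chaperone or cold-inducible genes, with 1 point per array, for control (grey) and NRCWE-030 18 µg (red) on day 28, and the mean with SD beside the points. The open circle is treated replicate 5 from its scanner file and the blue cross the same array in the series matrix; Hspa8, Hsp90ab1, Hsph1 and Cirbp passed the test, and for Hspa1b and Dnajb1 control replicates 4 and 5 lie near the treated arrays.

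For Hspa8 and Cirbp the control lay apart from all exposed groups of day 28. Hspa8 averaged -1.21 ± 0.19 (SD, n = 5) in the controls and -2.23 ± 0.37 at 18 µg, beside -1.96 ± 0.31 at 54 µg and -1.83 ± 0.26 at 162 µg of NRCWE-030 and -1.92 ± 0.19 at 18 µg of NRCWE-025. The day 1 control averaged -1.88 ± 0.48. Cirbp averaged 0.86 ± 0.28 in the day 28 controls, 1.84 ± 0.28 at 18 µg, 1.42 ± 0.17 at 162 µg and 1.31 ± 0.22 in the day 1 controls. For Hsph1 and Hsp90ab1 this held only in part: NRCWE-025 at 18 µg averaged -0.46 ± 0.62 and -1.16 ± 0.18, near the control means of -0.17 ± 0.21 and -1.08 ± 0.13. Leaving out 1 array at a time, Hsp90ab1 lost its call in all 10 cases, Hsph1 in 7, Hspa8 in 4 and Cirbp in 1, with the direction kept in each.

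Of the 18 genes that rose, the non-coding RNAs Firre, Snhg20 and Snhg16 are described here. The genes 5830428M24Rik, 5730480H06Rik and D930048N14Rik, given below, are also non-coding by the RefSeq entries of their probes. Firre, a nuclear long non-coding RNA transcribed from the X chromosome, lay at -0.86, -0.70, -0.88, -0.72 and -0.65 in the controls and at 0.14, 0.36, 0.31, 0.29 and -0.32 in the treated arrays. The groups did not overlap, and treated replicate 5 was the lowest of its group in its scanner file, with 0.38 in the series matrix. The difference was 0.92 ± 0.13 (SE, n = 5 and 5; adjusted p = 0.0087 by limma), a 1.89-fold rise, and it held a call under 25 of 26 alternatives, the exception being scan day as a block (0.94, adjusted p = 0.129).

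Snhg20 and Snhg16 are host genes of small nucleolar RNAs. Snhg20 lay at -2.42, -2.30, -2.40, -2.31 and -2.17 in the controls and at -1.49, -1.26, -0.98, -1.51 and -1.39 in the treated arrays, a rise of 0.99 ± 0.17 (SE; adjusted p = 0.0251). Snhg16 lay between -2.40 and -2.16 in the controls and between -1.73 and -1.67 in the treated arrays, a rise of 0.60 ± 0.12 (adjusted p = 0.0432). The treated arrays of Snhg16 were within 0.06 of each other, but its call was lost in 9 of 10 fits that left out 1 array. That of Snhg20 was lost in 5. Of RNAs outside the rule, chosen after their values were seen, Neat1, the scaffold RNA of paraspeckles, differed by 0.96 ± 0.21 (adjusted p = 0.0834), by 1.13 (0.0119) without treated replicate 5 and by 1.18 (0.00411) in the series matrix. Snhg3 differed by 0.41 ± 0.11 (0.142), and by 0.51 (0.0196) without that array. The splicing regulator Ptbp2 differed by 0.52 ± 0.12 (0.0834), and by 0.66 (0.000745) without it.

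Of the other genes that rose, Ahr, the aryl hydrocarbon receptor, lay at 1.35, 1.21, 1.17, 1.69 and 1.77 in the controls and at 2.09, 2.24, 2.27, 1.97 and 2.40 in the treated arrays. The groups were apart by 0.20 at the nearest arrays, and the rise was 0.76 ± 0.13 (SE; adjusted p = 0.0251). Il20rb, a receptor subunit shared by cytokines of the IL-20 family, ran from 0.43 to 0.64 in the controls and from 0.89 to 1.19 in the treated arrays, a rise of 0.51 ± 0.09 (0.0367). Ogt, the enzyme that adds O-linked N-acetylglucosamine to nuclear and cytosolic proteins, rose by 0.46 ± 0.08 (0.0367), and both of its probes were higher (0.49 and 0.43). Herc3, a HECT-type ubiquitin ligase, rose by 0.69 ± 0.13 (0.0432), and Fam193b by 0.71 ± 0.12 (0.0202). Ulk3, a kinase linked to autophagy, rose by 0.45 ± 0.08 (0.0388). Mbip, a subunit of a histone acetyltransferase complex, rose by 0.45 ± 0.09 (0.0432), and Polg2, the accessory subunit of the mitochondrial DNA polymerase, by 0.52 ± 0.10 (0.0432), with adjusted p = 0.0514 without treated replicate 5. When 1 array at a time was left out, Polg2 lost its call in 8 of 10 fits. Ogt, Herc3, Ulk3 and Mbip lost it in 7 each, and Ahr, Il20rb and Fam193b in 5 each.

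Myom3, an M-band protein of striated muscle, lay at 1.75, 1.61, 1.43, 1.43 and 1.81 in the controls and at 2.41, 2.39, 2.28, 2.09 and 2.10 in the treated arrays. It rose by 0.65 ± 0.10 (SE; adjusted p = 0.0169). In the series matrix, where treated replicate 5 stood at 1.41, the difference was 0.45 with adjusted p = 0.289, and 0.56 with adjusted p = 0.149 when that array was left out of the series matrix values. In the recomputed values without it, the difference was 0.69 (adjusted p = 0.00659). The remaining called genes were 5830428M24Rik (0.70), 5730480H06Rik (0.64), D930048N14Rik (0.36), Izumo4 (0.64) and Spata1 (0.53), with adjusted p between 0.0144 and 0.0432. Of 10 fits that left out 1 array, these genes lost their call in 3, 5, 6, 7 and 7, in this order, and Myom3 in 4. Pomc, the precursor of the melanocortins, and Tle2, a Groucho-type corepressor, were next in order of p with arrays that did not overlap, at 0.41 (adjusted p = 0.0505) and 0.65 (0.0523).

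The fourth gene that fell, Adamts9, encodes a secreted metalloprotease that cleaves proteoglycans. It lay at 1.21, 1.31, 1.27, 0.87 and 1.04 in the controls and at 0.46, 0.34, 0.39, 0.39 and 0.68 in the treated arrays. All treated arrays were below all controls, but the call was lost in 5 of 10 fits that left out 1 array. The fall was 0.69 ± 0.11 on the log2 scale (SE, n = 5 and 5; adjusted p = 0.0169), and it was carried mainly by 1 of its 2 probes: -1.08 for the probe well above background on all 10 arrays, and -0.30 for a probe well above background on 2 control arrays and 0 treated arrays.

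**Figure D3:**
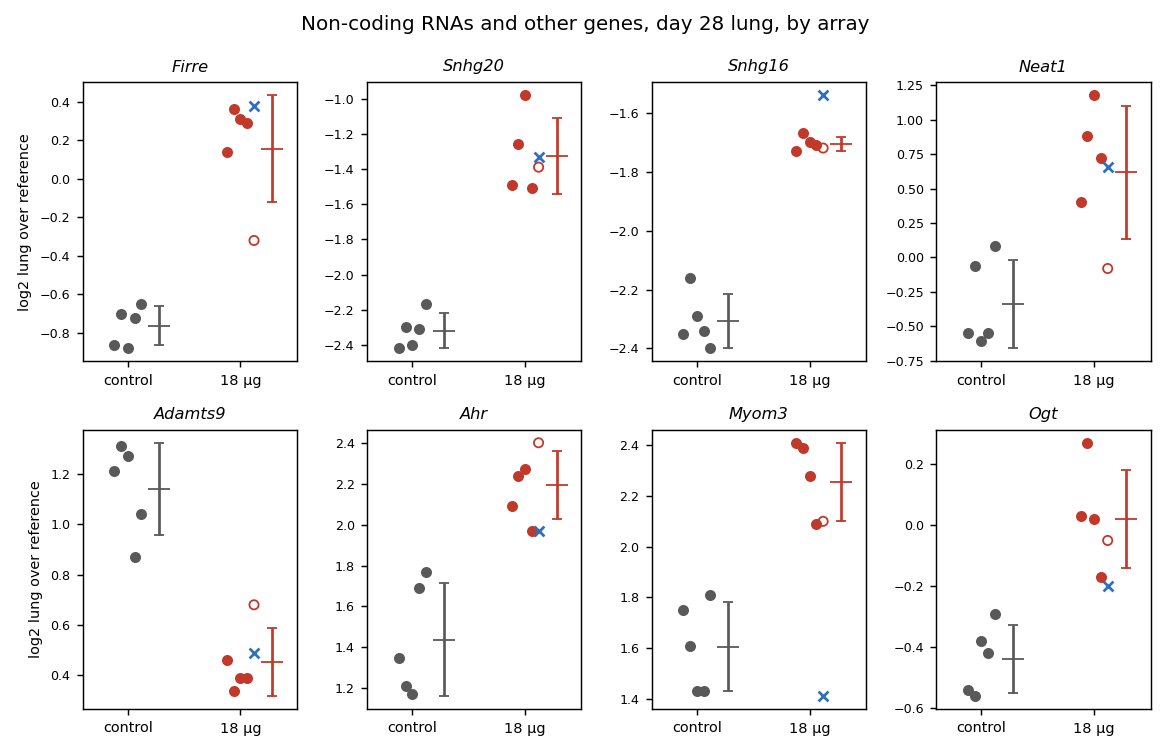
Log2 lung over reference by array for 8 genes, in control (grey) and NRCWE-030 18 µg (red) on day 28, with mean and SD, the open circle for treated replicate 5 from its scanner file and the blue cross for the same array in the series matrix. Adamts9 lies lower in the treated arrays and the other 7 higher; the 2 versions of replicate 5 differ most in Firre, Neat1 and Myom3, and Neat1 did not pass the test.

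None of the 26 clock genes passed the test at 18 µg. Median differences were -0.04 over 6 activators, 0.03 over 13 repressors and 0.13 over 7 outputs. Dbp, an output transcription factor, lay at -0.84, -1.18, -1.36, 0.55 and 0.55 in the controls and at 0.83, 0.87, 1.13, 0.73 and -0.52 in the treated arrays. The controls fell into a low set of 3 and a high pair, and treated replicate 5 was low in its scanner file and at 0.84 in the series matrix. Its difference was 1.07 ± 0.34 (SE, n = 5 and 5; adjusted p = 0.271), 1.35 (0.0686) without treated replicate 5 and 1.40 (0.0399) in the series matrix. Hlf, a related output factor, differed by 0.60 ± 0.16 (0.176), and the repressor Nr1d2 by 0.39 ± 0.14 (0.348). Arntl differed by -0.14 ± 0.18 (0.889) and Per2 by 0 ± 0.12 (0.999).

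No gene of the inflammation lists passed the test, also without treated replicate 5 and in the series matrix values. Of 26 chemokines 14 were higher and 12 lower, with a median of 0.06. Of 19 acute phase genes 8 were higher and 11 lower, with a median of -0.07, and no member of either list reached an unadjusted p under 0.05. The treated arrays were not alike in these lists. The mean acute phase level was 0.91 in treated replicate 1, 0.31 to 0.45 in the other treated arrays and 0.39 to 0.64 in the controls. The mean chemokine level was 0.63 in treated replicate 1, 0.06 to 0.26 in the other treated arrays and 0.08 to 0.52 in the controls. In order of p, the acute phase genes began with Serpina3n, a secreted protease inhibitor, at -0.21 ± 0.11 (adjusted p = 0.6), Crp at -0.13 ± 0.08 (0.681), Orm1 at -0.36 ± 0.26 (0.746) and Saa2, a serum amyloid A gene, at 0.22 ± 0.16 (0.761). Among the chemokines, Cxcl13, which attracts B cells, differed by -0.93 ± 0.66 (0.748) and Ccl22 by 0.09 ± 0.08 (0.786). Crp and Ccl22 were not well above background on any of the 10 arrays. Of 21 cytokine genes 17 were higher and 4 lower, with a median of 0.09, and 14 were higher without treated replicate 5. The smallest p were those of Il18, at 0.45 ± 0.13 (0.222), and Nfkbiz, at 0.44 ± 0.20 (0.511). Of 28 genes of macrophage uptake and lysosome, the median was 0.04, and Mrc1, a mannose receptor of alveolar macrophages, differed by 0.44 ± 0.15 (0.316). Lists of interferon-stimulated genes, complement, Nrf2 targets, p53 targets, proliferation and cholesterol synthesis had medians between -0.08 and 0.04 and no calls. In cholesterol synthesis 16 of 17 genes were below 0 (median -0.08), 14 without treated replicate 5 and 11 in the series matrix values.

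The 32 matrix and fibrosis genes had no call, and 28 of them were below 0, with a median of -0.15, beside 0 over all genes. At an unadjusted p under 0.05, 7 were lower and 1 higher, beside 3.87% and 5.15% of all genes. In the series matrix values 28 were below 0 (median -0.18), and 25 were without treated replicate 5 (-0.18). Of the fibroblast markers, none of which passed the test, 9 of 9 were below 0 (median -0.14), and 6 of 9 without that array (-0.08) as in the series matrix values (-0.07). The part of fibroblast content in this result was not tested. Col1a2, a chain of type I collagen, lay at -0.93, -1.54, -1.44, -1.04 and -1.35 in the controls and at -1.42, -1.61, -2.19, -1.63 and -2.23 in the treated arrays, which overlapped. Its difference was -0.55 ± 0.17 (SE; adjusted p = 0.249). Elastin (Eln) differed by -0.32 ± 0.11 (0.342) and Acta2, smooth muscle actin, by -0.42 ± 0.15 (0.353). The matricellular gene Ccn1 went the other way, at 0.77 ± 0.34 (0.496). Spon2, a secreted matrix protein, differed by -0.65 ± 0.20 (0.258). In the immediate early list the median was 0.11 over 23 genes, and the transcription factors Egr1 (1.14 ± 0.40, adjusted p = 0.324), Fos (0.95 ± 0.28, 0.222) and Nr4a1 (0.92 ± 0.32, 0.325) had the largest differences. In Egr1 the controls spanned -3.19 to -0.69, a wider range than the difference. The glucocorticoid and fasting list had no calls, and its median over 15 genes turned from -0.11 to 0.06 without treated replicate 5 and was 0 in the series matrix values.

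**Figure D4:**
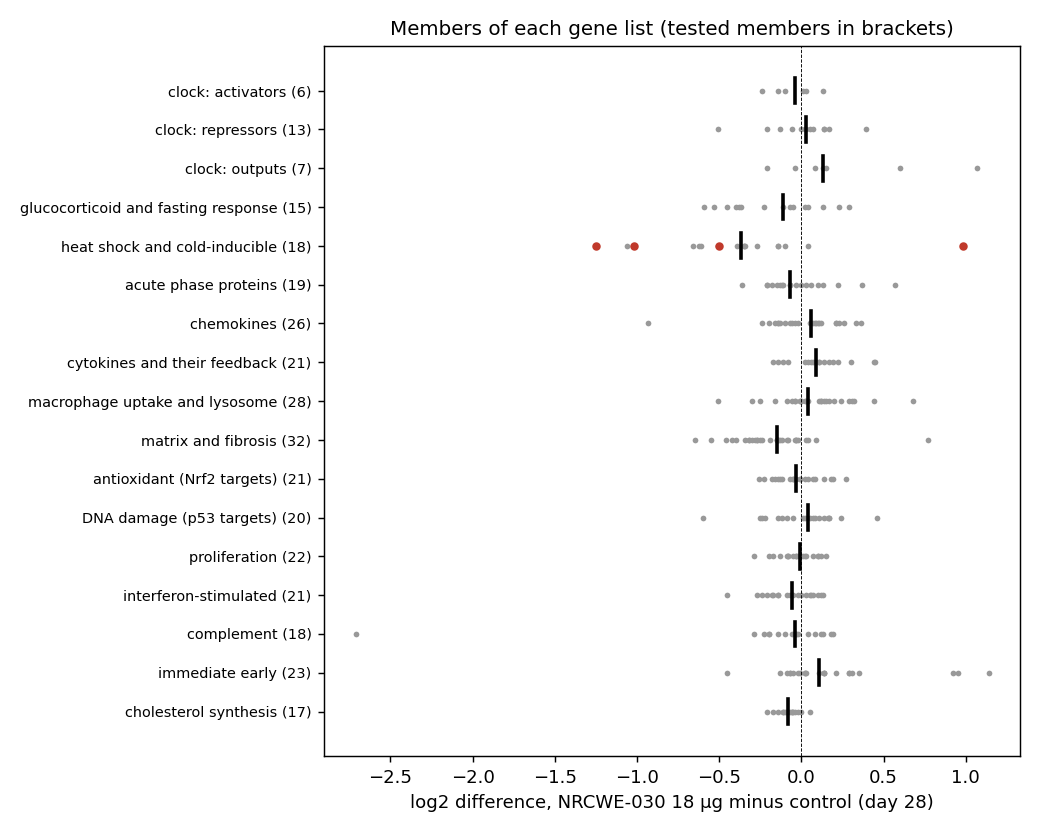
Each point is 1 tested member of a gene list, placed by its log2 difference of NRCWE-030 18 µg minus control on day 28, with called genes in red and the list median as a black bar. The 4 called genes all lie in the heat shock and cold-inducible list, whose median of -0.37 is the farthest from 0 among the 17 pathway lists plotted; the matrix and fibrosis median is -0.15.

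The study's 10 sets of genes, called biclusters and derived by it from other data sets, had no called gene at this dose. Medians ranged from -0.06 to 0.10 in 9 of them. In treated replicate 1 the mean level of Bicluster-3 was 0.63, beside 0.10 to 0.35 in the controls. That of Bicluster-7 was -0.16, beside -0.58 to -0.37. The other treated arrays lay within the control range in both. Bicluster-9, which holds heart muscle genes such as Myl7 and Actc1, had a median of -0.92, with 16 of 17 members below 0 and 9 lower at an unadjusted p under 0.05, beside 3.87% of all genes. Myl7, an atrial myosin light chain, lay at 5.67, 5.39, 6.11, 6.37 and 4.57 in the controls and at 5.63, 2.80, 2.50, 3.66 and 2.99 in the treated arrays. Treated replicate 1 lay within the control range and the other 4 below it. In the series matrix the median of the set was -0.45, and treated replicate 5 stood at 6.31 for Myl7.

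Several cell type marker lists lay mostly on 1 side of 0, with no call in any. All 13 heart muscle markers were measured and 12 were lower, with a median of -1.23, and of -0.55 in the series matrix values. The mean level over the list was between 1.32 and 2.96 in the controls and between 0.63 and 1.88 in the treated arrays. Sln, sarcolipin, was at 4.51, 4.32, 5.51, 5.85 and 3.09 in the controls and at 4.2, 0.28, 0.38, 0.04 and 0.18 in the treated arrays, and at 6.16 for replicate 5 in the series matrix. White fat markers had a median of -0.84 (8 of 9 lower), with a mean level of 4.36 in control replicate 4 beside 0.53 to 2.04 on the other 9 arrays. Of 9 smooth muscle and pericyte markers 9 were lower (median -0.35), with mean levels of 1.25 to 1.59 in the controls and 0.82 to 1.31 in the treated arrays. Without treated replicate 5, 9 were lower (-0.34), and in the series matrix values 7 were (-0.28). Of 11 neutrophil markers 9 were lower (median -0.51), with mean levels of 1.16 to 2.07 in the controls and 1.24 to 1.51 in the treated arrays. Mmp9, a neutrophil gelatinase, differed by -0.67 ± 0.16 (adjusted p = 0.0994), and by -0.77 (0.0395) without treated replicate 5. All 10 B cell and all 9 T cell markers were above 0, with medians of 0.20 and 0.19, and 8 of 10 and 8 of 9 in the series matrix values. The T cell level ran from -0.16 to 0 in the controls and from 0.03 to 0.38 in the treated arrays, without overlap. The highest, 0.38, was that of treated replicate 5 from its scanner file. The B cell level overlapped, from 0.77 to 1.7 in the controls and from 1.11 to 1.4 in the treated arrays. The part of these cell types in the results above was not tested. Club and goblet markers had a median of -0.56 (7 of 9 lower), which was -0.18 without treated replicate 5 and -0.02 in the series matrix values. Brown fat markers had a median of -0.34 (6 of 8 lower, 4 of them at an unadjusted p under 0.05, beside 3.87% of all genes). Ucp1, Cidea and Ppargc1a differed by 0.02, -0.04 and 0. Fabp3, Cox7a1, Cox8b, Dio2 and Elovl3 differed by -0.97, -0.88, -0.52, -0.45 and -0.23. Cox7a1 and Cox8b are also in Bicluster-9, and Ucp1 and Elovl3 were not well above background on any of the 10 arrays. Alveolar type 1 markers had a median of -0.14 (6 of 7 lower). The ciliated median was 0.04, but 0.21 without treated replicate 5 and 0.19 in the series matrix values. Alveolar macrophage markers had a median of 0.16 (6 of 10 higher), with 3 higher at an unadjusted p under 0.05, beside 5.15% of all genes. The median was 0.24 (8 of 10 higher) without treated replicate 5 and 0.15 (7 of 10) in the series matrix values. Alveolar type 2 (0.07) and endothelial (0.02) markers were near 0.

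The high dose of the same material differed from the low dose on day 28 in 5 of 18664 genes (0.0268%), a comparison that holds no control array but shares the 5 low dose arrays with the comparison above, as do those with NRCWE-025 and with day 1. Tspan4, a tetraspanin, lay at -0.75 ± 0.12 (SD, n = 5) at 18 µg and at -0.07 ± 0.09 at 162 µg, a difference of 0.67 ± 0.08 (SE; adjusted p = 0.00184). Spon2 was lower at 162 µg, at -1.99 ± 0.28 beside -0.54 ± 0.37, by -1.45 ± 0.20 (0.00548). Arntl was lower, at -0.92 ± 0.13 beside 0.31 ± 0.50, by -1.23 ± 0.18 (0.00645). Per2, a clock repressor, was higher at 162 µg by 0.73 ± 0.12 (0.0265), and Arrdc4, an arrestin-domain gene, lower by -0.71 ± 0.12 (0.0265). Without treated replicate 5, and also in the series matrix values, 3 of the 5 kept the call: Tspan4, Spon2 and Arntl. The count was also 3 without treated replicate 2 or 4, or without replicate 2, 3 or 4 of the 162 µg group. Arntl in treated replicate 5 was 1.11 in the scanner file and -0.12 in the series matrix, while the other treated arrays ran from -0.25 to 0.33. For the chaperones the 2 doses differed by 0.40 ± 0.17 for Hspa8 (adjusted p = 0.653) and 0.25 ± 0.23 for Hsph1 (0.873).

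A RefSeq window of Arntl (GRCm38.p6, chr7:113207261-113207560, plus strand) is shown because Arntl separated the doses, with the ROR motif AGGTCA, searched on both strands, in capitals.
Arntl: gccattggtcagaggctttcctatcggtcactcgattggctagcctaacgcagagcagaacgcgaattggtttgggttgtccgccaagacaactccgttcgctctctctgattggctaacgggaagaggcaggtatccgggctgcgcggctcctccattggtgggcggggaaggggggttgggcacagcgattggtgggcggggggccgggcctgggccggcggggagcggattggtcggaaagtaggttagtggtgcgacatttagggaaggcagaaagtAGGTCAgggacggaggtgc
The table holds a further Arntl window that overlaps it, with 0 matches. The window shown held 1 match, after the gene start, and none of the E-box CACGTG or the D-box TTATGTAA. Of 20 clock genes with a window, 5 (25%) held the ROR motif, 6 (30%) the E-box and 1 (5%) the D-box, beside 18.1%, 8.09% and 1.11% of all genes in the table.

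**Figure D5:**
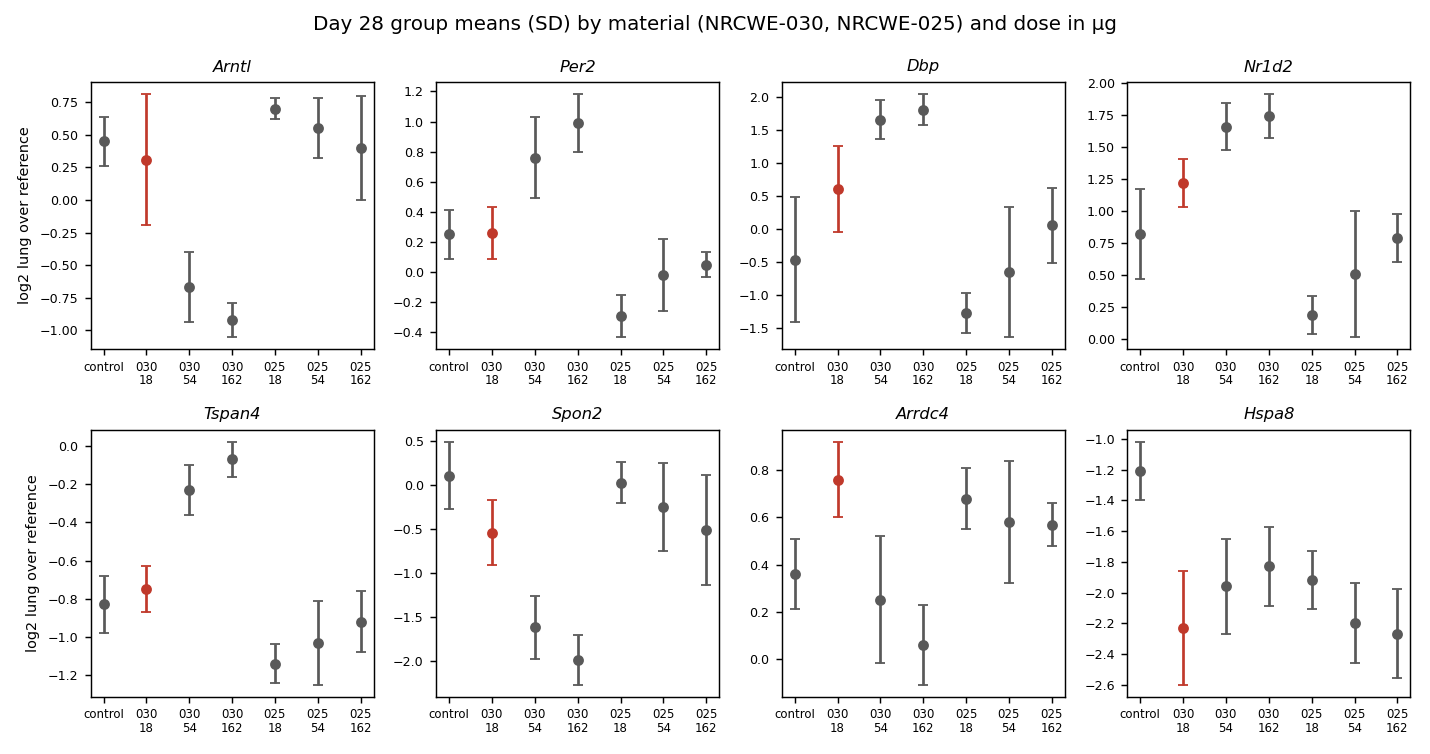
Mean and SD of log2 lung over reference in the 7 day 28 groups (x axis: control, then NRCWE-030 and NRCWE-025 with the dose in µg), with NRCWE-030 18 µg in red. For Arntl, Per2, Tspan4 and Spon2 the red point lies nearer to the control than to 162 µg of the same material; for Hspa8 all exposed groups lie below the control at -1.21.

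At the matched dose of 18 µg on day 28, NRCWE-030 and NRCWE-025 differed in 0 of 18664 genes (0%) by limma at an adjusted p under 0.05, with 1235 genes at an unadjusted p under 0.05 and 0 called with the ordinary t statistic. The count was 1 without treated replicate 5 and 2 in the series matrix values. Dbp came nearest, at 0.61 ± 0.65 (SD, n = 5) for NRCWE-030 and -1.27 ± 0.31 for NRCWE-025. The difference was 1.88 (95% interval 1.12 to 2.64, adjusted p = 0.0699), 2.16 (0.0165) without treated replicate 5 and 2.18 (0.0051) in the series matrix. Nr1d2 differed by 1.03 (95% interval 0.61 to 1.45, adjusted p = 0.0699), and by 1.06 (0.0449) in the series matrix. For Hspa8 the difference of the materials was -0.31 with an interval of -0.72 to 0.09, for Cirbp 0.20 with -0.07 to 0.47, and for Hsph1 -0.96 with -1.48 to -0.44 (adjusted p = 0.31). These intervals are not adjusted for the number of genes.

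The effect of 18 µg differed between day 28 and day 1 in 2 genes (0.0107%), each day against its own controls. The count was 2 without treated replicate 5 of day 28, 1 in the series matrix values, 4 without day 1 control replicate 3 and 8 without day 1 treated replicate 2. Adamts9 was at 1.14 ± 0.18 in the day 28 controls and 0.45 ± 0.13 at 18 µg, and at 0.40 ± 0.20 in the day 1 controls and 0.55 ± 0.18 at 18 µg on day 1. The difference of the effects was -0.84 ± 0.14 (SE; adjusted p = 0.00377). Myom3 was at 1.60 ± 0.18 and 2.25 ± 0.15 on day 28 and at 2.25 ± 0.28 and 1.81 ± 0.29 on day 1, a difference of 1.08 ± 0.19 (0.00554), which was 0.80 (0.603) in the series matrix. In both genes the controls of the 2 days differed more than the treated groups did. For Firre, Snhg20 and Cirbp the differences of the effects were 0.53 ± 0.23 (0.919), 0.20 ± 0.33 (0.98) and 0.46 ± 0.19 (0.902).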

How the data were processed

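Lung RNA of 69 mice in 14 groups was measured on 2-colour Agilent arrays with 45018 spots, on 19 slides scanned on 11 days. The deposited scanner files, made with Agilent Feature Extraction 11.0.1.1 per the file headers, hold for each spot linear intensity values of the signal and of the local background in each colour, with no correction applied, and a log10 ratio of Cy5 over Cy3 after the scanner software's own background and dye correction. Other deposited columns are flags (score of 0 or 1). Per probe, the authors also deposited LOWESS-normalised log2 values in the series matrix.

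Levels were recomputed with limma 3.58.1 in R 4.3.3 (with data.table, version 1.17.8): where the scanner software flags a spot's local background as an outlier, the median local background of unflagged spots on that array was used instead, background was corrected by normexp (offset 50), loess was run within each array, and values were combined by the median over spots of a probe and over probes of a symbol. Of 41174 probes, 27501 (66.8%) had a RefSeq symbol, and 18664 genes were tested. The design is on an earlier assembly than the reference, so no probe positions are given. Control and the 3 NRCWE-030 doses of day 28 were fitted together, and all 14 groups for the other material and for day 1 (lmFit, eBayes, two-sided, Benjamini-Hochberg adjusted p under 0.05, no minimum fold). The test was tried on simulated data of this comparison with 18664 genes: of 50 genes changed by 0.5 on the log2 scale 72% were called, and of 50 changed by 1, 92%, with 14 unchanged genes called (7.25% of the calls). The simulated noise was independent between genes and arrays, with no slide or scan day effect. Other genes were changed by 1.5 and 2, and more genes were changed than were called in the real data. This loosens the adjusted p cutoff, so the shares called can overstate recovery in the real arrays. Precision is limited by the number of arrays. Labels give no replicate numbers, so replicates are numbered in accession order; each is 1 mouse. Figures were drawn with matplotlib 3.10.9 in Python 3.11.15.

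Named genes were the called genes, the next by p with separate groups up to 24, up to 4 of smallest p in each list, the clock genes, and up to 6 called in each other comparison. Hspa1a, Hspa1b, Hspd1, Dnajb1, Stip1, Rbm3, Mmp9 and Sln lie outside that rule and were chosen after their values were seen. Ccn1 and the brown fat markers also lie outside it. Other genes outside that rule are said to be so. Of 799 list entries 765 matched a tested gene, 14 through an older symbol. The comparison, the lists and the background step were chosen with earlier results of these data known. Alternatives were other background corrections, the series matrix, the scanner's log ratio, scaling, a filter on dim genes, the brightest probe, slide and scan day as blocks, array weights, other sets of groups, the ordinary t statistic and leaving out each array.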

Additional observations from a re-analysis of the deposited data

Results flagged for a closer look

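In 58 pairs of a named gene and a group, 3 held an array far from the others of its group by Dixon's ratio of gap to range, about as many as chance gives at a level that marks 1 group in 20. Mbip stood at 1.24 in control replicate 5, beside 0.98 to 1.04 in the other controls. Hsp90ab1 stood at -1.81 in treated replicate 5, beside -1.57 to -1.49 in the other treated arrays. Dbp stood at -0.52 in treated replicate 5, beside 0.73 to 1.13, and this array is the one whose scanner file and series matrix column differ. The effect of 18 µg differed between day 28 and day 1, by a tested interaction, for Adamts9 (-0.84) and Myom3 (1.08).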

How the results depend on the processing

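No paired analysis was possible because the labels give no replicate numbers that the groups share; slide and scan day were used as blocks. The count of genes called between 18 µg and control on day 28 (22) moved by more than 1.5 times under 19 of 26 alternatives. It was 3 with backgrounds as deposited, 93 with the series matrix values, 110 with the scanner's log ratio, 105 with slide as a fixed block (10 of the 22 among them), 117 with slide as a random block, 0 with scan day as a block, 135 with array weights, 9 with the groups compared alone and 5 with the ordinary t statistic. Leaving out 1 array gave 1 to 70. With 2 alternatives chosen after seeing the data, both without treated replicate 5, it was 52 in the series matrix values and 52 with no background correction. Between 162 and 18 µg the count (5) was 3 with the series matrix values, 10 and 14 with slide as a fixed and a random block, 31 with scan day as a block, 2 with the groups compared alone, 1 with the ordinary t statistic, 8 with all 14 groups in the fit, 3 to 7 leaving out 1 array, and 3 with no background correction and no treated replicate 5. Between the materials at 18 µg (0) it was 2 with the series matrix values, 1 with the scanner's log ratio, 1 with slide as a random block, 14 with array weights, 2 with the groups compared alone, 0 to 1 leaving out 1 array and 1 under each of the 2 added alternatives. For the day 28 against day 1 effect (2) it was 1 with backgrounds as deposited, with no background correction, with the series matrix values, with scaling between arrays, with slide as a fixed block and under each added alternative, 0 with the scanner's log ratio and with the groups compared alone, and 2 to 8 leaving out 1 array. Among the called and other named genes followed through the alternatives, the difference of Per2 between 18 µg and control, 0 as reported, was the one that changed sign: -0.06 with slide as a fixed block, 0 with slide as a random block, -0.07 with scan day as a block, -0.01 with array weights, -0.06 to 0.05 leaving out 1 array, and 0 with no background correction and no treated replicate 5. The causes of these changes were not tested.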
